A study of Mus musculus with 16 samples.

Results

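GABA-A receptor subunit genes were followed in mouse primary neuronal cultures through oxygen-glucose deprivation (OGD), with and without the antidepressant tianeptine (TIA). The genes are *Gabra2*, *Gabra3*, *Gabra4* and *Gabra5* (alpha subunits), *Gabrb1* and *Gabrb2* (beta subunits) and *Gabrd* (the delta subunit). They were chosen by their symbols, with earlier results of these data known. They are 7 of 53679 gene symbols in the deposited table and 7 of 19 GABA-A subunit genes in it. Their values are sums over 27 of 135202 isoforms. Cultures came from the cortex of wt mouse embryos at E15. There were 16 cultures, 4 in each of 4 groups. CONTROL-VEH received vehicle at DIV 8 and a sham procedure 24 h later, and CONTROL-TIA received 10 μM TIA and the sham procedure. OGD-VEH received vehicle and 3 h of OGD, and OGD-TIA received 10 μM TIA and 3 h of OGD. The labels call the vehicle cultures untreated. RNA was taken after 6 h of reoxygenation in all groups. The methods call the 4 cultures of a group biological replicates, and their numbers run from 1 to 16. No label gives a litter, a preparation or a match between cultures of different groups. Cultures were therefore treated as unmatched, and whether some shared a preparation is not known.

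GABA-A receptors are chloride channels opened by the transmitter GABA, and they carry most of the fast inhibition in the cortex. Each channel is a ring of subunits, commonly of the alpha and beta kinds together with a gamma or a delta subunit. Alpha and beta subunits together form the GABA binding sites. Receptors with a delta subunit, often paired with alpha4 in the forebrain, and many receptors with alpha5 lie outside synapses and carry a tonic current.

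Expression is given in FPKM, which divides reads by the length of a transcript and the depth of the library, with TMM scaling between libraries. Levels may be compared between genes, except where a short isoform of uncertain level makes up much of a sum. The depth after TMM scaling was estimated at 19.8 M to 26.1 M reads per culture, and 1 read on a transcript of 1 kb was worth 0.0384 to 0.0506 FPKM. This depth is not a count of aligned reads, and its upper end lies above the range of aligned reads in the methods. The 12 pan-neuronal markers summed to 4224 to 4731 FPKM in CONTROL-VEH, with none of them at 0, and the 9 microglia markers to 0.68 to 1.97 FPKM. The 9 astrocyte markers summed to 769 to 1642 FPKM in CONTROL-VEH, so these cultures also held transcripts of other cell types. Culture 4 of CONTROL-VEH, culture 12 of OGD-VEH and culture 16 of OGD-TIA stood apart by the astrocyte gene *Gfap*, with 87.4, 85.9 and 64.5 FPKM, and the other 13 cultures had 5.09 to 26.2 FPKM. Changes without these 3 cultures are given beside each comparison.

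*Gabra2*, *Gabra4* and *Gabrb1* lie in one cluster on chromosome 5 (GRCm38). *Gabra2* spans 70957597 to 71095849 on the minus strand, *Gabra4* spans 71569749 to 71658308 on the minus strand, and *Gabrb1* spans 71658113 to 72149037 on the plus strand, head to head with *Gabra4*. *Gabra5* lies on chromosome 7 from 57407672 to 57510059 (minus strand), and *Gabrb2* on chromosome 11 from 42419757 to 42629028 (plus strand). *Gabra3* lies on chromosome X from 72432681 to 72656848 (minus strand), and *Gabrd* on chromosome 4 from 155384980 to 155398112 (minus strand).

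In CONTROL-VEH, *Gabra5* had the highest level of the 7 genes, 49.5 FPKM ± 4.61 (SD, n = 4), above every culture's value for the other genes. *Gabra4* followed with 31.6 ± 13.4, *Gabra2* with 22 ± 3.18, *Gabrb2* with 20.5 ± 2.02 and *Gabra3* with 19.6 ± 3.32 FPKM. The ranges of these neighbours overlapped, so their order is not resolved. *Gabrb1* (12.3 ± 1.51 FPKM) lay below all of them, and *Gabrd* (2.7 ± 0.192 FPKM) was the lowest. Of the *Gabra4* mean, 19.6 FPKM came from the 440-nt isoform Gabra4-203 and 11.7 FPKM from the 4108-nt Gabra4-201. The place of *Gabra4* above *Gabrb1* thus rests on the short isoform, whose level is uncertain. Of the *Gabra2* mean, 7.89 FPKM (6.71 to 8.86) came from Gabra2-203, its only coding isoform. Gabrb1-201, the main coding isoform of *Gabrb1*, had 10.3 FPKM (9.26 to 12.2). The place of *Gabra2* above *Gabrb1* thus holds for the sums and not for these coding isoforms. *Gabra5* also led in CONTROL-TIA (51.7 ± 4.4 FPKM), in OGD-TIA (40.6 ± 10.3 FPKM) and in OGD-VEH (28.2 ± 11.4 FPKM), where its range overlapped that of *Gabra2*. *Gabrd* was lowest in every group.

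**Figure D1:**
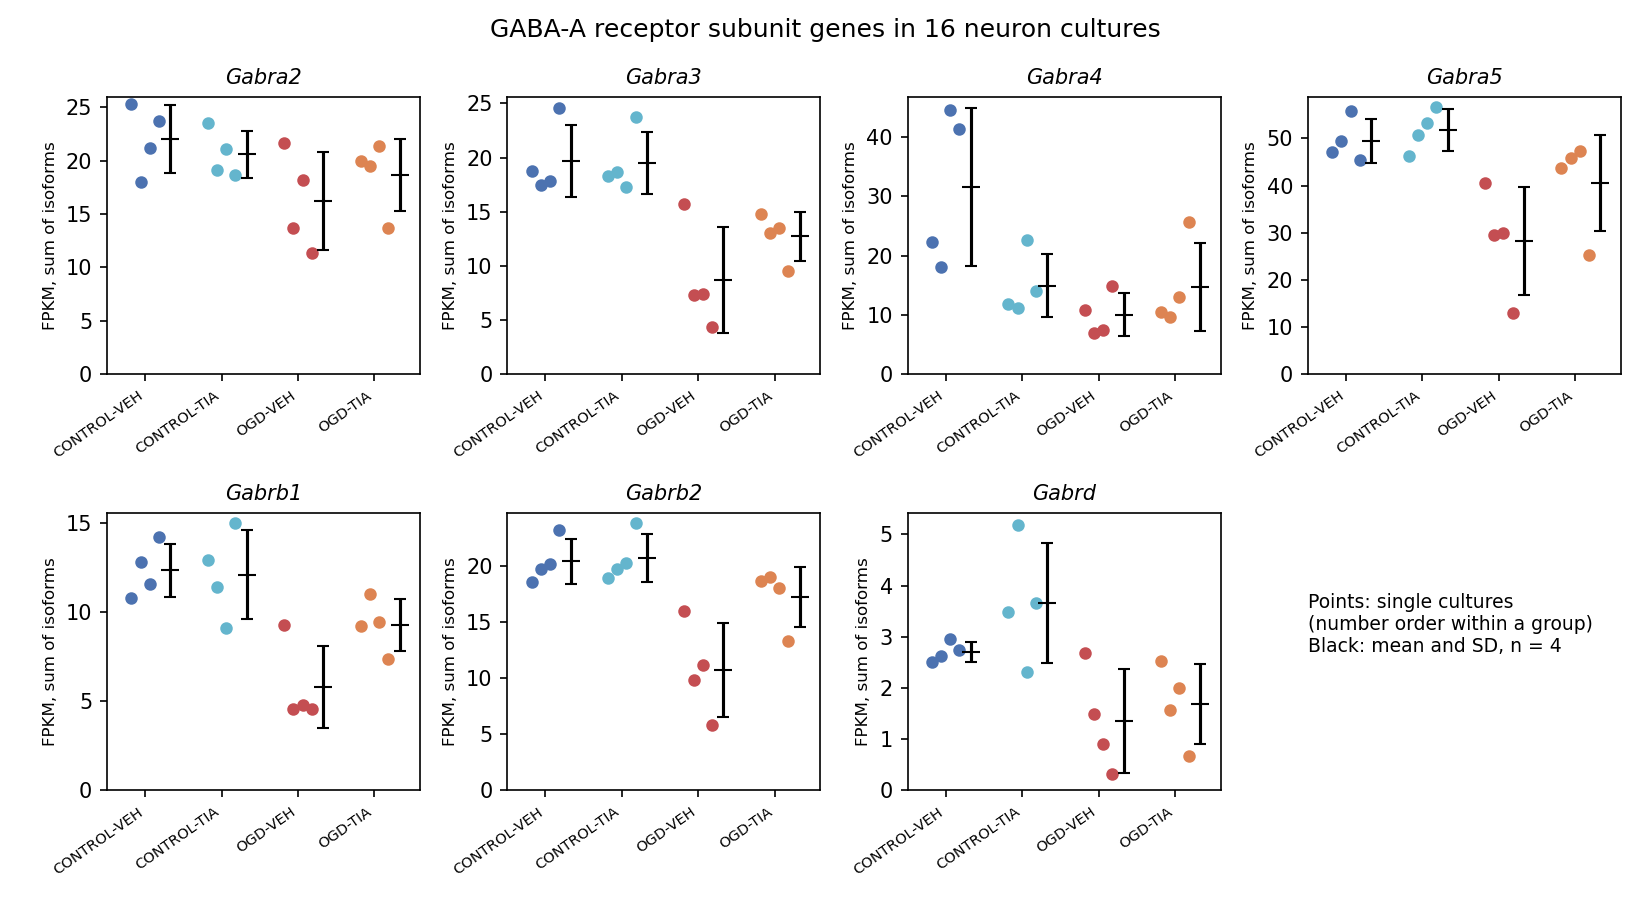
FPKM (sum of isoforms, y axis from 0) of the 7 subunit genes in each of 16 cultures, by group, with the mean and SD of 4 cultures in black. For Gabra3, Gabra4, Gabra5, Gabrb1 and Gabrb2 the 4 OGD-VEH cultures all lie under the 4 CONTROL-VEH cultures, and culture 9 is the highest OGD-VEH point in every panel apart from Gabra4.

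The first comparison asked what OGD did to these genes without the drug. The means of all 7 genes were lower in OGD-VEH than in CONTROL-VEH, a direction shared by 41.8% of all genes tested, and *Gabra4* and *Gabrb1* passed as lower by the test used across all genes (limma, Benjamini-Hochberg padj of at most 0.05). These are 2 of 7 genes, where 3.45% of 16346 genes tested passed in the lower direction and 8.44% in either. Both also had a log2 fold change beyond 1 in size, which 1.68% of all genes tested reached in that direction. For 5 of the 7 genes the OGD-VEH cultures all lay under the CONTROL-VEH cultures, which was so for 9.95% of all genes. The median log2 fold change was -1.14 over the 7 genes and 0.1 over all genes tested. Changes are on the log2(FPKM + 0.1) scale.

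Among the alpha subunits, *Gabra4* had 22.3, 18.0, 44.6 and 41.3 FPKM in CONTROL-VEH cultures 1 to 4 and 10.8, 6.9, 7.51 and 14.9 FPKM in OGD-VEH cultures 9 to 12. The groups did not overlap, but the CONTROL-VEH cultures lay in 2 pairs far from each other. Its log2 fold change was -1.61 (SE 0.36, padj = 0.0411 from limma). In CONTROL-VEH, *Gabra3* stood at 18.8, 17.5, 17.8 and 24.6 FPKM, against 15.7, 7.27, 7.41 and 4.38 FPKM after OGD. All OGD-VEH cultures were lower, culture 9 only slightly, and the log2 fold change of -1.3 (SE 0.34) missed the threshold (padj = 0.0509 from limma). *Gabra5* stood at 47.1, 49.5, 55.9 and 45.4 FPKM in CONTROL-VEH, against 40.5, 29.6, 30 and 12.9 FPKM after OGD. Its groups did not overlap either, with a log2 fold change of -0.92 (SE 0.31, padj = 0.0826 from limma). *Gabra2* stood at 25.3, 18.0, 21.2 and 23.7 FPKM in CONTROL-VEH, against 21.6, 13.7, 18.2 and 11.3 FPKM after OGD. Its log2 fold change was the smallest of the 7 and its groups overlapped (-0.47, SE 0.22, padj = 0.157 from limma).

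Of the beta subunits, *Gabrb1* stood at 10.8, 12.8, 11.6 and 14.2 FPKM in CONTROL-VEH, against 9.26, 4.56, 4.77 and 4.57 FPKM after OGD. Of the OGD-VEH cultures, 10, 11 and 12 lay close together and culture 9 was nearest to the controls. The log2 fold change was -1.14 (SE 0.24, padj = 0.0383 from limma). *Gabrb2* stood at 18.6, 19.8, 20.2 and 23.3 FPKM in CONTROL-VEH, against 16, 9.84, 11.2 and 5.84 FPKM after OGD. The groups did not overlap, and the log2 fold change of -1.01 (SE 0.27) missed the threshold (padj = 0.0528 from limma). *Gabrd* stood at 2.5, 2.63, 2.95 and 2.74 FPKM in CONTROL-VEH, against 2.69, 1.49, 0.909 and 0.326 FPKM after OGD. Culture 9 lay among the controls and the other 3 under them (log2 fold change -1.25, SE 0.51, padj = 0.119 from limma).

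In the exact permutation test of each gene by itself (two-sided, 70 assignments of 8 cultures, 28 such tests over 4 comparisons), the 5 genes whose groups did not overlap had p = 0.0286, the smallest p that 4 against 4 cultures can give. *Gabrd* had p = 0.0857 and *Gabra2* p = 0.143 in the same exact permutation test. Single cultures decided the count that passed limma, here and over all genes. Without culture 9 all 7 genes passed, where 12.6% of 16366 genes passed in the lower direction, with log2 fold changes from -1.67 (*Gabra4* and *Gabrd*) to -0.63 (*Gabra2*, padj = 0.0475 from limma). Without any other single culture of the 8, 1 to 4 of CONTROL-VEH or 10 to 12 of OGD-VEH, 0 of the 7 genes passed in limma, and between 1 and 106 of all genes did so. Without culture 12, the log2 fold change was -0.58 for *Gabra5*, -0.76 for *Gabrd* and -0.31 for *Gabra2*. Without cultures 4, 12 and 16, also 0 of the 7 passed, and 2 of all 16330 genes tested did so. The log2 fold changes were then -0.28 for *Gabra2*, -0.92 for *Gabra3*, -1.66 for *Gabra4*, -0.62 for *Gabra5*, -0.98 for *Gabrb1*, -0.69 for *Gabrb2* and -0.76 for *Gabrd*.

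Over all 16 cultures, the mean of both OGD groups was compared with the mean of both CONTROL groups in one fit, which gives more cultures to each estimate. In this comparison 6 of the 7 genes fell, where 13.7% of 16313 genes tested passed in the lower direction and 32.5% in either. *Gabrb1* had a log2 fold change of -0.76 (SE 0.16, padj = 0.00402 from limma) and *Gabrb2* of -0.64 (SE 0.16, padj = 0.00978). *Gabra3* had a log2 fold change of -0.96 (SE 0.2, padj = 0.00426 from limma), and its 8 OGD cultures all lay under its 8 CONTROL cultures. That was so for 1 of the 7 genes and for 2.42% of all genes tested. *Gabrd* had the change of largest size, -1.2 (SE 0.34, padj = 0.0169 from limma). *Gabra5* (-0.65, SE 0.2, padj = 0.0218 from limma) and *Gabra4* (-0.85, SE 0.26, padj = 0.0251) also fell. *Gabra2* did not pass, with -0.31 (SE 0.14, padj = 0.0928 from limma). Without cultures 4, 12 and 16, 6 of the 7 genes passed, where 11.2% of 16256 genes passed in the lower direction, with log2 fold changes of the 7 genes from -1.02 (*Gabra4*) to -0.14 (*Gabra2*). *Gabra4* missed the threshold without culture 3, 7 or 10 (padj = 0.0512, 0.0519 and 0.0527 from limma), and *Gabra2* passed without culture 9 (log2 fold change -0.39, padj = 0.0256).

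**Figure D2:**
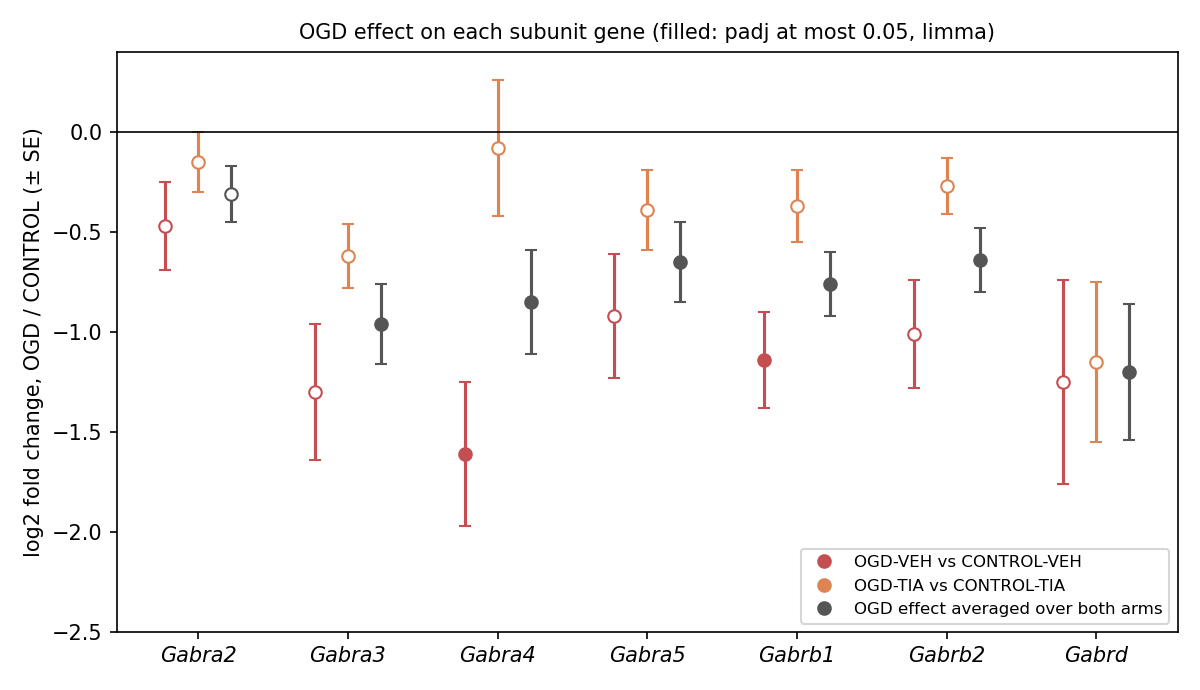
Log2 fold change of OGD over CONTROL (y axis, log2(FPKM + 0.1) scale, bars ± SE from limma) for each subunit gene, in vehicle cultures, in TIA cultures and averaged over both arms. Filled points have a padj of at most 0.05: Gabra4 and Gabrb1 in vehicle cultures, none in TIA cultures, and every gene except Gabra2 in the average.

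The next comparison asked what OGD did in cultures pretreated with TIA. None of the 7 genes passed between OGD-TIA and CONTROL-TIA in limma (0 of 7, where 0.0% of 16242 genes passed in either direction), and 2 of 7 had an unadjusted p under 0.05, against 19.5% of all genes. All 7 log2 fold changes were below 0, as for 44.2% of all genes, from -1.15 to -0.08, with a median of -0.37 beside 0.04 over all genes. *Gabra3* was the only one of the 7 without overlap, against 6.72% of all genes that were lower without overlap. It had 18.3, 18.7, 17.3 and 23.7 FPKM in CONTROL-TIA cultures 5 to 8 and 14.8, 13, 13.5 and 9.53 FPKM in OGD-TIA cultures 13 to 16. Its log2 fold change was -0.62 (SE 0.16, padj = 0.134 from limma), with p = 0.0286 in the exact permutation test. *Gabrd* had 3.49, 5.18, 2.31 and 3.66 FPKM in CONTROL-TIA and 2.53, 1.56, 2.0 and 0.67 FPKM in OGD-TIA, so that 1 OGD-TIA culture overlapped the controls (log2 fold change -1.15, SE 0.4, padj = 0.191 from limma).

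*Gabra5* had 46.2, 50.7, 53.3 and 56.7 FPKM in CONTROL-TIA and 43.8, 45.8, 47.3 and 25.3 FPKM in OGD-TIA. Culture 16 was far below the other 3 OGD-TIA cultures, which lay close to the controls (log2 fold change -0.39, SE 0.2, padj = 0.316 from limma). *Gabrb2* had 19.0, 19.8, 20.3 and 23.9 FPKM in CONTROL-TIA and 18.7, 19.1, 18.1 and 13.3 FPKM in OGD-TIA (log2 fold change -0.27, SE 0.14, padj = 0.317 from limma). *Gabrb1* had 12.9, 11.4, 9.13 and 15.0 FPKM in CONTROL-TIA and 9.24, 11, 9.47 and 7.39 FPKM in OGD-TIA (log2 fold change -0.37, SE 0.18, padj = 0.289 from limma). In these sums, most OGD-TIA cultures of both beta subunit genes lay within or close to the range of the controls. For the main isoforms, Gabrb1-201 and Gabrb2-201, the OGD-TIA cultures lay under all CONTROL-TIA cultures, as for 3.81% of all isoforms tested. Neither isoform passed (padj = 0.568 and 0.546 from limma). *Gabra2* (log2 fold change -0.15, SE 0.15) and *Gabra4* (-0.08, SE 0.34) differed by less than the spread between cultures, and the sign of *Gabra4* changed without culture 7, 13 or 14, to 0.14, 0.04 and 0.08 on the log2 scale. Without culture 16, which alone of the 3 high in *Gfap* enters here, the 7 log2 fold changes ran from -0.79 to -0.01 and 0 passed in limma.

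Whether the OGD effect differed between the arms was tested as an interaction over the 16 cultures. The differences, TIA arm minus vehicle arm, were above 0 for all 7 genes, from 0.1 (*Gabrd*) to 1.53 (*Gabra4*) on the log2 scale, with a median of 0.69, where 54.2% of all genes were below 0. None of them passed in limma (0 of 7, where 0.0% of 16313 genes passed), with padj from 0.722 to 0.97, and 3 of 7 had an unadjusted p under 0.05, against 6.06% of all genes. A smaller OGD effect under TIA was therefore not shown for any of these genes. Neuronal markers had the same direction. Of 12 pan-neuronal markers 1 had a difference below 0, and of 10 excitatory neuron markers 0 did, with medians of 0.48 and 0.55. *Gabrb1* had a difference of 0.77 (SE 0.31) and *Gabrb2* of 0.74 (SE 0.32), each with padj = 0.722 from limma. Without cultures 4, 12 and 16 the differences ran from -0.04 (*Gabrd*) to 1.27 (*Gabra4*), and 0 passed in limma.

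After OGD, TIA cultures were compared directly with vehicle cultures. All 7 means were higher in OGD-TIA, by log2 fold changes from 0.23 (*Gabra2*) to 0.76 (*Gabrb2*), where 56.7% of all genes were lower. None passed in limma (0 of 7, where 0.0% of 16351 genes passed), with padj from 0.551 to 0.721, and 2 of 7 had an unadjusted p under 0.05, against 7.91% of all genes. The direction was shared by neuronal markers. Of 12 pan-neuronal and 10 excitatory neuron markers 0 were lower in OGD-TIA, with median log2 fold changes of 0.48 and 0.69. Of 13 interneuron markers tested 8 were lower, and of 9 astrocyte markers 9 were lower. *Gabrb2* had the 3 cultures 13, 14 and 15 above every OGD-VEH culture (log2 fold change 0.76, SE 0.29, padj = 0.551 from limma) and *Gabrb1* had 2 such cultures (0.73, SE 0.25, padj = 0.551). Without cultures 12 and 16 the log2 fold changes ran from 0.21 to 0.74, and 0 passed in limma. This comparison, the interaction and both OGD comparisons share cultures, so they are not independent of each other.

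Without OGD, TIA was compared with vehicle. None of the 7 genes passed in limma (0 of 7, where 0.0% of 16170 genes passed), all with padj = 0.999, and 1 of 7 had an unadjusted p under 0.05, against 3.84% of all genes. That gene was *Gabra4*, with 11.8, 11.2, 22.6 and 14 FPKM in CONTROL-TIA against 22.3, 18.0, 44.6 and 41.3 FPKM in CONTROL-VEH (log2 fold change -1.03, SE 0.35). *Gabrd* was at 0.37 (SE 0.22), with 3 CONTROL-TIA cultures above all CONTROL-VEH cultures. The other 5 lay between -0.09 and 0.06 on the log2 scale. Without culture 4 the 7 values ran from -0.87 (*Gabra4*) to 0.38 (*Gabrd*), and 0 passed in limma.

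The *Gabra4* values rest on 2 isoforms of very unequal length. Gabra4-201 is the 4108-nt transcript of 9 exons with 1656 coding nt, and Gabra4-203 is a 440-nt transcript of 3 exons with 282 coding nt, both annotated as protein coding. Gabra4-203 joins exon 2 directly to a part of the last exon. The sequences across the joints are given here, since only reads over the first of them separate the short isoform from the long one. They were read from GRCm38, chromosome 5, minus strand, with 30 bases on each side, and capitals mark the last exon.
Gabra4-203, exon 2 to exon 3: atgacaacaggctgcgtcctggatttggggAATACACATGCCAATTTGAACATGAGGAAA
Gabra4-201, exon 2 to exon 3: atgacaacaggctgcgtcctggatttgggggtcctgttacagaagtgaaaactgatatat
Gabra4-201, exon 8 to exon 9: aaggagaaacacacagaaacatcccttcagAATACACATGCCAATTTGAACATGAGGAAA
The left part of the short isoform's joint is the left part of the second sequence, and its right part is that of the third. Of the 391 positions at which a 50-nt read can start on Gabra4-203, 48 (12.3%) give a read found in no other *Gabra4* isoform.

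Gabra4-203 had 10.7, 6.69, 33.7 and 27.5 FPKM in CONTROL-VEH, 0.0, 0.0, 11.4 and 2.4 FPKM in CONTROL-TIA, 0.0, 0.0, 0.0 and 7.62 FPKM in OGD-VEH and 0.001, 0.0, 2.7 and 16.9 FPKM in OGD-TIA. It was listed at 0 in 6 of 16 cultures and made up to 75.5% of the *Gabra4* sum. Its highest value corresponds to an estimated 320 reads, against 626 to 1228 reads for Gabra4-201. Gabra4-201 stood at 11.6, 11, 10.9 and 13.5 FPKM in CONTROL-VEH, against 10.7, 6.75, 7.4 and 7.12 FPKM in OGD-VEH, with no overlap. It had 10.8, 11, 11.1 and 11.6 FPKM in CONTROL-TIA and 10.1, 9.38, 9.77 and 8.67 FPKM in OGD-TIA, also without overlap. The large distance between the control pairs in the gene sum is thus found in Gabra4-203 and not in Gabra4-201. Tested by itself, Gabra4-201 had a log2 fold change of -0.57 (SE 0.18, padj = 0.174 from limma) between OGD-VEH and CONTROL-VEH and fell by 0.40 on the log2 scale in the average over both arms (padj = 0.0252). With isoforms weighted by their length, so that the sum follows reads rather than transcripts, *Gabra4* fell in OGD-VEH by 0.76 on the log2 scale in place of 1.61 (padj = 0.0271 from limma). Weighted in this way, *Gabra4* had -0.25 in place of -1.03 between CONTROL-TIA and CONTROL-VEH and 0.56 in place of 1.53 in the interaction, and Gabra4-201 by itself had -0.07 and 0.34.

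**Figure D3:**
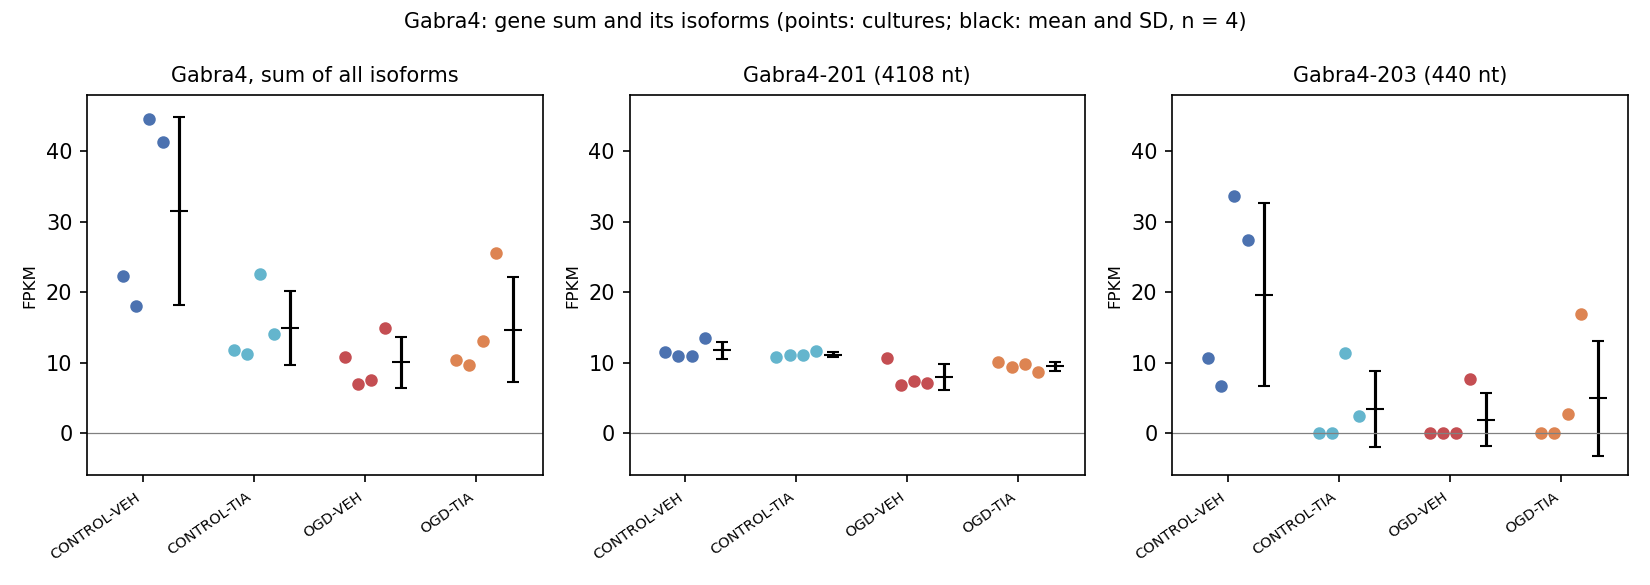
FPKM (y axis, same scale in each panel) of the Gabra4 sum, of Gabra4-201 and of Gabra4-203 in the 16 cultures, with mean and SD (n = 4) in black. Gabra4-201 stays between 6.75 and 13.5 FPKM while Gabra4-203 runs from 0 to 33.7 FPKM and gives the sum its spread.

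The other genes rested mostly on 1 isoform. Gabrb2-201 (3989 nt) held 89.8 to 99.8% of the *Gabrb2* sum, Gabra3-201 (3662 nt) 84.8 to 97.5% of the *Gabra3* sum, and Gabrb1-201 (13737 nt) 64.3 to 100% of the *Gabrb1* sum. For each of these, and for Gabra4-201 and Gabra5-202, the OGD-VEH cultures lay under all CONTROL-VEH cultures (5.83% of all isoforms tested), and the OGD-TIA cultures under all CONTROL-TIA cultures (3.81% of all isoforms tested). Gabra3-201 had a log2 fold change of -1.36, Gabrb1-201 of -1.09 and Gabrb2-201 of -1.01, none of which passed over all isoforms tested (padj = 0.138, 0.148 and 0.154 from limma). In the average over both arms, 6 of 18 isoforms tested of the 7 genes fell, where 3.5% of all isoforms tested did so. Among them were Gabra4-201, Gabra3-201 (padj = 0.0116 from limma), Gabrb1-201 (padj = 0.0297) and Gabrb2-201 (padj = 0.033 from limma). *Gabra5* was spread over 3 coding isoforms that have the same coding length of 1389 nt. Gabra5-202 led with 51.5 to 73.8% of the sum and fell in the average over both arms (log2 fold change -0.65, padj = 0.0348 from limma).

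*Gabra2* was the exception, since its only coding isoform, Gabra2-203 (5852 nt), held 30.9 to 59.5% of the sum. The rest was annotated as retained intron, processed transcript or nonsense-mediated decay. Gabra2-203 stood at 7.8, 6.71, 8.86 and 8.2 FPKM in CONTROL-VEH, against 8.22, 5.68, 5.96 and 4.45 FPKM after OGD, with overlap (log2 fold change -0.4, SE 0.21, padj = 0.351 from limma). The retained-intron isoform Gabra2-202 was the *Gabra2* isoform that fell in the average over both arms (log2 fold change -0.61, padj = 0.0328 from limma). For *Gabrd*, the coding isoform Gabrd-201 (1921 nt) was listed at 0.002 FPKM in culture 12 and at 0 in culture 16, where non-coding isoforms made up nearly the whole sum. With protein-coding isoforms only, *Gabrd* missed the threshold in the average over both arms (log2 fold change -1.48, padj = 0.0867 from limma).

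*Gabrb1* has starts 41819 bases apart. The start of Gabrb1-202 (799 nt) lies at 71658113, where its first exon shares 28 bases with the first exon of Gabra4-201 on the other strand, and that of Gabrb1-201 lies at 71699932. Since Gabrb1-201 carries most of the *Gabrb1* signal, the RefSeq promoter window of its start is shown (GRCm38.p6, chr5:71699682-71699981, plus strand, 250 bases before the start and 50 after).
Gabrb1-201 start: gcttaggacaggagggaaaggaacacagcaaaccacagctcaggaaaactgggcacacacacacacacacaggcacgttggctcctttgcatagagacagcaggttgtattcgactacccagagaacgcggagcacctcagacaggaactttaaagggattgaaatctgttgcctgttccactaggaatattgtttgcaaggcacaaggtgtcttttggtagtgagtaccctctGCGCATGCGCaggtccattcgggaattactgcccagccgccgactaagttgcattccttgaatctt
Capitals mark the match to the NRF1 motif, searched on both strands, which 4.59% of 32817 promoter windows of this length hold. Of the 7 genes, 6 had a window (10 windows in all), and this was the only one of the 10 with a match to NRF1. TATA box, CRE, AP-1 and Sp1 motifs were searched as well. Windows of *Gabra3* and *Gabrb2* held a TATA box match (13.62% of all windows). Windows of *Gabra2*, *Gabra4* and *Gabrb2* held an Sp1 match (35.63% of all windows). A match describes the letters and is not a sign of binding.

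The subunit genes were lower in the groups in which neuronal markers were lower. The 12 pan-neuronal markers summed to 1813 to 3759 FPKM in OGD-VEH against 4224 to 4731 FPKM in CONTROL-VEH, and to 2423 to 4149 FPKM in OGD-TIA against 4175 to 4471 FPKM in CONTROL-TIA. All 12 log2 fold changes in OGD-VEH were below 0, as for 41.8% of all genes, with a median of -0.79. Of them *Syt1*, a calcium sensor of synaptic vesicles, passed (-1.52, padj = 0.0447 from limma), where 3.45% of all genes passed in the lower direction. The 9 astrocyte markers summed to 1034 to 2607 FPKM in OGD-VEH against 769 to 1642 FPKM in CONTROL-VEH, with overlap, and to 773 to 1981 FPKM in OGD-TIA against 673 to 890 FPKM in CONTROL-TIA, also with overlap, and 0 of 9 passed in OGD-VEH in limma, with a median log2 fold change of 0.67. The 10 oligodendrocyte lineage markers summed to 186 to 223 FPKM in CONTROL-VEH and 255 to 707 FPKM in OGD-VEH. Of 8 tested, 4 rose (*Olig1*, *Olig2*, *Cspg4* and *Sox10*) and 1 fell in limma, where 8.44% of all genes passed in either direction. In these bulk cultures, fewer neurons and less RNA per neuron cannot be told apart, and the part of either in the subunit values was not tested.

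The level of each subunit gene relative to the mean log2 level of the 12 pan-neuronal markers was also compared, a measure chosen after the data had been seen. Relative to these markers, 6 of 7 genes were lower in OGD-VEH than in CONTROL-VEH, from -0.84 (*Gabra4*) to -0.15 (*Gabra5*) on the log2 scale, and *Gabra2* was higher by 0.29. None reached the smallest possible p in the exact permutation test, with p from 0.0857 (*Gabrb2*) to 0.429 (*Gabra5*). The median difference was -0.37, beside -1.14 without this reference. Between OGD-TIA and OGD-VEH, *Gabrb2* was higher relative to the markers by 0.36 without overlap, with p = 0.0286 in the exact permutation test, 1 of 28 such tests. By culture, the mean of the 7 genes, centred over all cultures, was lowest in culture 12 (-1.26), which was also lowest in the markers (-1.11). Culture 9 was at 0.04 for the genes and at 0.0 for the markers.

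**Figure D4:**
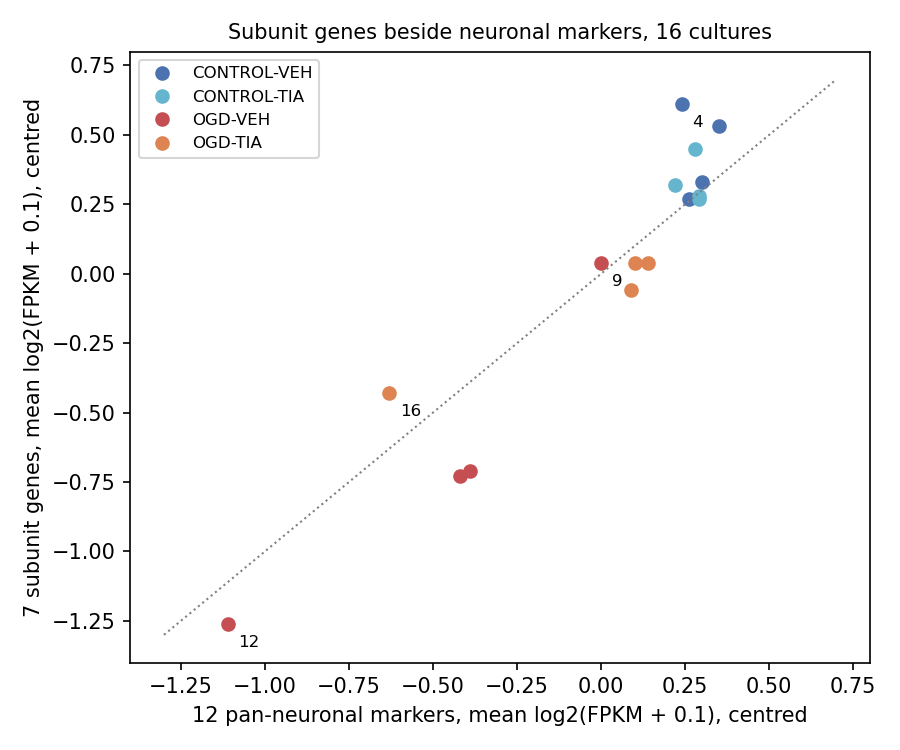
Mean log2(FPKM + 0.1) of the 7 subunit genes (y axis) beside that of 12 pan-neuronal markers (x axis), each centred over 16 cultures, with equal values on the dotted line. Points are cultures, coloured by group, and culture 12 is lowest in both while the 8 CONTROL cultures are highest in both.

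Outside these 7 genes, *Gabrg1* and *Gabrg3*, which encode gamma subunits, fell in the average over both arms. *Gabrg3* had a log2 fold change of -0.45 (padj = 0.00864 from limma), from 2.82 ± 0.342 FPKM (SD, n = 4) in CONTROL-VEH to 1.96 ± 0.231 FPKM in OGD-VEH, which did not overlap. Of all genes tested, 9.95% were lower without overlap between these groups. *Gabrg1* had -0.39 (padj = 0.0184 from limma), from 9.56 ± 1.74 to 6.65 ± 1.55 FPKM in the same groups, with overlap. Between OGD-VEH and CONTROL-VEH neither passed (padj = 0.0848 and 0.102 from limma). *Gabra6*, *Gabrp*, *Gabre*, *Gabrq*, *Gabrr1*, *Gabrr2* and *Gabrr3* had means of at most 0.717 FPKM in any group.

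Among 22 genes for anchoring, assembly and trafficking of the receptors, 1 fell between OGD-VEH and CONTROL-VEH, where 3.45% of all genes did. In the average over both arms 11 fell and 1 rose, where 13.7% of all genes fell and 32.5% passed in either direction. *Mdga1*, a modulator of synaptic adhesion, stood at 38.7 ± 2.43 FPKM in CONTROL-VEH, against 25.2 ± 3.94 FPKM after OGD (log2 fold change -0.63, padj = 0.0374 from limma). *Iqsec3*, a gephyrin binding exchange factor (log2 fold change -0.74, padj = 0.0515 from limma), the fusion ATPase *Nsf* (-0.99, padj = 0.0518) and the kinesin *Kif5a* (-0.7, padj = 0.0534) had no overlap between the groups and missed the threshold. They were named for their small p within the list. In all, 7 of the 22 genes were lower without overlap, against 9.95% of all genes. Of the GABA-B receptor genes, *Gabbr2* fell in the average over both arms (-1.17, padj = 0.0107 from limma), as did *Gabbr1* (-0.42, padj = 0.00981).

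Of 7 genes tested for GABA synthesis, transport and breakdown, 2 fell in the average over both arms, where 13.7% of all genes did. *Slc32a1*, the vesicular GABA transporter, had a log2 fold change of -0.83 (padj = 0.00273 from limma), and *Aldh5a1*, of GABA breakdown, of -0.24 (padj = 0.0103). *Gad1* (-0.52), *Gad2* (-0.46), *Abat* (-0.33) and *Slc6a11* (0.07) had padj from 0.0857 to 0.68 in limma. *Slc12a5*, the neuronal chloride exporter that sets the driving force of these receptors, fell in the same comparison (-0.97, padj = 0.0122 from limma), from 68.3 ± 9.76 FPKM in CONTROL-VEH to 30.9 ± 18.9 FPKM in OGD-VEH. The chloride importer *Slc12a2* had 10.3 ± 0.813 and 13.3 ± 2.45 FPKM in these groups (0.21, padj = 0.0959 from limma in the average over both arms).

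Of 14 interneuron markers, 7 fell and 2 rose in the average over both arms, where 13.7% of all genes fell and 32.5% passed in either direction. Between OGD-VEH and CONTROL-VEH the list was mixed, with 9 of 14 log2 fold changes below 0. Only *Sst* passed as lower there (log2 fold change -2.14, padj = 0.0416 from limma), as did 3.45% of all genes, and 0 markers passed as higher. Of 10 excitatory neuron markers, 7 fell in the average over both arms and 0 rose, where 13.7% of all genes fell. *Slc17a7*, the main vesicular glutamate transporter of cortex, stood at 49.3 ± 1.81 FPKM in CONTROL-VEH, against 19.7 ± 13.2 FPKM after OGD, without overlap (-1.57, padj = 0.053 from limma). In this list 4 of 10 were lower without overlap, against 9.95% of all genes.

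For each subunit gene, the protein-coding genes with the most similar profile over 16 cultures were found by the root-mean-square difference of centred log2 values over 11674 genes. *Gabra5* was nearest to *March4* (0.063), *Dact2* (0.077) and *Nwd2* (0.08), where its own values vary by 0.533 around their mean. *Gabrb2* was nearest to *Gucy1b1* (0.088), *Kcnma1* (0.097) and *Kcnt2* (0.111), and *Gabra3* to *Syn2* (0.116), *Vstm2a* (0.127) and *Mctp1* (0.133). *Gabra2* was nearest to *Dbn1* (0.124), *Uchl1* (0.126) and *Tmem169* (0.126), and *Gabrb1* to *Hdac11* (0.179), *Adamts17* (0.193) and *Mctp1* (0.195). *Gabrd*, at low levels, had no neighbour closer than 0.309 (*Ankrd34a*), followed by *2010300C02Rik* (0.326) and *Dcn* (0.333), and *Gabra4* none closer than 0.437 (*Rem2*), followed by *Ccdc189* (0.467) and *Med23* (0.545). Among the 7 genes, *Gabra5* and *Gabrb2* were the closest pair (0.166) and *Gabra4* and *Gabrd* the farthest (1.113).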

How the data were processed

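Libraries of 16 cultures were made with a stranded mRNA kit and read as single ends of 50 bases. Per the labels and methods, the authors' provider mapped reads with STAR to GRCm38 and estimated isoform levels with eXpress, which splits reads among isoforms by probability, so that short isoforms inside longer ones are uncertain. The table's name gives the unit of the deposited values, FPKM with TMM scaling. Of 135276 lines, 74 without an identifier (0.051% of FPKM) were left out.

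Isoforms were summed per symbol and log2(FPKM + 0.1) was taken. Features with a mean of at least 0.5 in a fit's cultures went into limma 3.58.1 (R 4.3.3, empirical Bayes with trend), with Benjamini-Hochberg adjustment over every feature tested. Pairwise comparisons were fitted on their own 8 cultures, and the average over both arms and the interaction on 16. DESeq2, which the submitters' processing notes name, needs counts and was not run. The test was tried on simulated data of 4 against 4 cultures (16181 genes, 200 of them changed). There limma found 56.1 to 60.6% of the 2-fold and 80.4 to 81.2% of the 4-fold changes, with 6 to 14 false calls. All simulated cultures were drawn from the means and SDs of CONTROL-VEH, each gene by itself. The spread of OGD-VEH and shifts of whole cultures were not simulated, so these rates may not hold for the real comparison. Isoforms were matched to GENCODE M21 (99.89% found). Depth after TMM scaling was estimated from the value of 1 read in 17546 genes of 1 isoform, and no counting intervals were given.

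The genes and lists were chosen with earlier results of these data known. Genes named were the 7 subunit genes, the other subunits, the GABA-B, GABA metabolism and chloride genes that were tested, up to 4 genes of each remaining list by smallest p between OGD-VEH and CONTROL-VEH, and for each subunit gene the 3 nearest profiles among coding genes whose mean reached 2 FPKM. Some genes that this rule names are not reported here. Alternatives changed the pseudocount (1 or 0.01), the filter (none, or 2 FPKM), the scaling (median of ratios), the variance model (array weights, robust), the summing of isoforms (by length, coding only, or each alone) and the cultures (all 16 in each fit, or 1 left out). Leaving out cultures 4, 12 and 16 and using pan-neuronal markers as the reference were added after the data had been seen. Other software was Python 3.11.15 with scipy 1.17.1, numpy 2.4.6, matplotlib 3.10.9 and pandas 2.3.3.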

Additional observations from a re-analysis of the deposited data

Results flagged for a closer look

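Of 28 groups of 4 cultures (7 genes in 4 groups), 2 held a culture far from the other 3 by Dixon's test, where chance flags about 1 in 20 groups. *Gabra5* had 25.3 FPKM in OGD-TIA culture 16, against 43.8 to 47.3 FPKM in the other 3. *Gabrb1* had 9.26 FPKM in OGD-VEH culture 9, against 4.56 to 4.77 FPKM in the other 3.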

How the results depend on the processing

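Between OGD-VEH and CONTROL-VEH, the number of the 7 genes that passed limma was 2 as reported (8.44% of all genes tested). It moved together with the share of all genes that passed. It was 0 without the filter (0.144% of all genes), 4 with a minimum mean of 2 FPKM (12.3%), 6 with array weights (38.8%), 5 with isoforms weighted by length (25.1%), 4 with coding isoforms only (16.6%), 5 with all 16 cultures in one fit (28.2%) and 0 without cultures 4, 12 and 16 (0.0122%). It was 0 when isoforms were tested singly, and 0 to 7 when each culture was left out in turn. The limma log2 fold changes of the 7 summed genes stayed below 0 in this comparison under these settings, isoforms tested singly not included. With array weights, 3 genes passed in OGD-TIA against OGD-VEH, where 9.42% of all genes did, and 1 in the interaction, where 1.33% did. With median-ratio scaling, 2 genes for anchoring, 1 for GABA synthesis and transport, 2 interneuron and 2 pan-neuronal markers passed in OGD-VEH, where 7.91% of all genes did. That scaling gave 638 genes higher and 655 lower in OGD-VEH, where the reported fit had 816 and 564. The average over both arms kept 5 to 7 of the 7 genes past the threshold under all settings. The share of all genes that passed there in either direction ran from 13.4% (no filter) to 45.5% (isoforms weighted by length).

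Signs turned where changes were near 0. For *Gabra4* in OGD-TIA against CONTROL-TIA, leaving out a culture gave -0.39 to 0.14. For CONTROL-TIA against CONTROL-VEH the values were 0.0 for *Gabra2* and -0.38 for *Gabrd* with coding isoforms only, 0.06 for *Gabra3* with array weights and -0.01 for *Gabrb2* by length, and leaving out a culture gave -0.1 to 0.1 for *Gabra3*, -0.15 to 0.08 for *Gabrb1* and -0.05 to 0.08 for *Gabrb2*. Without cultures 4, 12 and 16, of which only culture 4 enters there, *Gabra3* had 0.1 and *Gabrb1* 0.03. *Gabrd* had -0.02 to 0.89 in OGD-TIA against OGD-VEH and -0.39 to 0.51 in the interaction with a culture left out, where a pseudocount of 1 gave -0.06 and leaving out cultures 4, 12 and 16 gave -0.04.

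Relative to pan-neuronal markers, the exact permutation p in OGD-VEH was 0.114 for *Gabra2* (with the sign turned) and *Gabra3*, 0.171 for *Gabra4* and *Gabrb1*, 0.429 for *Gabra5* and 0.0857 for *Gabrb2*. In OGD-TIA against CONTROL-TIA it was 0.0857, 0.8 and 0.457 for *Gabra2*, *Gabra4* and *Gabrb2*, all with the sign turned, and 0.0571 for *Gabra3*. In OGD-TIA against OGD-VEH it was 0.114 for *Gabra2*, with the sign turned, and 0.0286 for *Gabrb2*. By length, the exact permutation p was 0.0286 for *Gabrd* in OGD-VEH and for *Gabra4* and *Gabra5* in OGD-TIA against CONTROL-TIA, as it was for *Gabrb2* there with coding isoforms only. With a culture left out, exact permutation p in OGD-VEH ran from 0.0286 to 0.0571 for *Gabra3*, *Gabra4*, *Gabra5*, *Gabrb1* and *Gabrb2* and to 0.143 for *Gabrd*. In OGD-TIA against CONTROL-TIA it ran from 0.0286 to 0.0571 for *Gabra3*, 0.2 for *Gabra5*, 0.171 for *Gabrb2* and 0.114 for *Gabrd*, and from 0.286 to 0.914 for *Gabra4*. In OGD-TIA against OGD-VEH it ran from 0.0286 to 0.257 for *Gabra3*, 0.171 for *Gabrb1* and 0.114 for *Gabrb2*, and from 0.2 to 0.971 for *Gabrd*. The cause of these changes was not tested.

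No paired analysis was run, since the cultures carry numbers 1 to 16 that no 2 groups share and no label matches them. If cultures of different groups shared a preparation, the tests here do not account for it. Low levels limit *Gabrd*, and overlapping reads limit the isoforms of *Gabra4* and *Gabra2*.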
